A study of Mus musculus with 4 samples.

Results

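Car4, Plet1 and Krt79 are 3 genes with high mRNA levels in alveolar macrophages (AMs), which reside in the airspace of the lung. They are described here in bulk RNA-seq of AMs from mice with and without a mammary tumor. They were picked by symbol, as 3 of the 54532 genes of the count table, and their tumor-against-control values in these same libraries were known when they were picked, so those values are given as a description with no test. AMs clear surfactant and inhaled particles, live in contact with the alveolar epithelium, and depend on GM-CSF and the nuclear receptor PPARγ for their identity. Car4 encodes carbonic anhydrase 4, an enzyme tethered to the outer face of the plasma membrane by a glycosylphosphatidylinositol (GPI) anchor that interconverts carbon dioxide and bicarbonate, and it also marks a class of lung capillary endothelium. Plet1 encodes a GPI-anchored glycoprotein first described in placenta and epithelial progenitors and also made by macrophages and dendritic cells of mucosal tissues. Krt79 encodes a type II keratin known from hair follicle and sebaceous duct epithelium. Keratins form filaments as pairs of a type I and a type II chain.

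The series holds 4 libraries, 2 from female wild-type mice without a tumor (control) and 2 from female wild-type mice that carried a primary 4T1 tumor for 2 weeks (tumor). 4T1 is a single mouse mammary carcinoma line, placed by the study in the mammary fat pad. Per the study's methods its wild-type mice were of BALB/c background and 8 to 10 weeks old. The study describes the AMs of these libraries as purified and elsewhere, for staining, names AMs as CD45+ CD11b- CD11c+ SiglecF+ cells, and neither labels nor methods say whether a library came from 1 mouse or from pooled mice, so p-values measure the spread between these libraries, which may be technical.

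Total counts ranged from 16167147 to 19205737 per library. Of 54532 genes, 14256 passed the filter on low counts and were tested with the quasi-likelihood test of edgeR with Benjamini-Hochberg adjustment. The call rate was high, with 53.8% of tested genes past an adjusted p of 0.05, 24.8% lower and 29.0% higher in tumor libraries, and 3.01% lower by at least 2-fold. The 10 markers used to check the AM label (Siglecf, Itgax, Marco, Mrc1, Fabp4, Chil3, Ear2, Pparg, Cidec and Atp6v0d2) were detected in every library. Fabp4, a fatty acid binding protein, was the weakest of them, at 23.5 and 27.0 CPM (a library's counts set to a common total after TMM scaling) in control libraries and 6.11 and 5.45 CPM in tumor libraries. Markers of other cells were not even between groups. The summed level of 12 neutrophil markers was 10.2 to 10.5 CPM in control libraries and 4017 to 4064 CPM in tumor libraries, that of 5 eosinophil markers was 0.480 to 0.506 and 2201 to 2221 CPM, and that of 10 hepatocyte markers was 0.0533 to 0.190 and 682.8 to 687.2 CPM. Every gene of these 3 lists rose. Of them, 6 neutrophil, 3 eosinophil and all 10 hepatocyte markers were at 3 counts or fewer in both controls. Those passed the filter only through the tumor libraries, so a rise was the only call open to them. S100a9, a calcium-binding protein of neutrophils, Prg2, the eosinophil major basic protein, and Alb, serum albumin, led the lists. The part of these transcripts in the results below was not tested, and in bulk libraries fewer cells of a type and less RNA per cell cannot be told apart.

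Car4 (ENSMUSG00000000805) lies on chromosome 11 at 84957786 to 84966044 of GRCm38 on the plus strand. Its longest coding transcript has 8 exons and encodes 305 residues. Plet1 (ENSMUSG00000032068) lies on chromosome 9 at 50494525 to 50505482 on the plus strand, with 4 exons and 237 residues. Krt79 (ENSMUSG00000061397) lies on chromosome 15 at 101929332 to 101940324 on the minus strand, with 9 exons and 531 residues. The 3 genes thus lie on 3 chromosomes, and of their products only those of Car4 and Plet1 are known to share a GPI anchor.

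The 250 bases before each RefSeq start site (build GRCm38.p6) are shown because the 3 genes were lower in the same libraries while their upstream sequence differed. Letters in capitals mark matches to the motifs searched, and each sequence is written 5′ to 3′ on the strand of its gene. The windows are chr11:84957504-84957753 for Car4, chr9:50494275-50494524 for Plet1 and chr15:101940325-101940574 for Krt79.
Car4 upstream: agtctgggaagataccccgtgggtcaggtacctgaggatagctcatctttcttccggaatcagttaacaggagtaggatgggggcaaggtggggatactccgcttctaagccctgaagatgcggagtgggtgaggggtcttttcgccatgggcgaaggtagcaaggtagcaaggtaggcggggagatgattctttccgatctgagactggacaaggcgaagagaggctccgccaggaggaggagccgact
Plet1 upstream: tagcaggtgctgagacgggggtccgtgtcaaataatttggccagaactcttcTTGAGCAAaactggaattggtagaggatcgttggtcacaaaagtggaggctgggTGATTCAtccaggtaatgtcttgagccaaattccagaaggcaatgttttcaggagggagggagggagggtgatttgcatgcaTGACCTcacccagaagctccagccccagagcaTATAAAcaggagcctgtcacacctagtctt
Krt79 upstream: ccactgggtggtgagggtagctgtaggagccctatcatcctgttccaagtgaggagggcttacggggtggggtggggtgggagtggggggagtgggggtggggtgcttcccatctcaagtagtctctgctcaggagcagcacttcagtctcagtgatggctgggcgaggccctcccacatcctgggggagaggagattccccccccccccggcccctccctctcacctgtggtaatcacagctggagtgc
The GC content was 56.4% for Car4 and 64.0% for Krt79, above the median of 52.4% over 32851 mouse promoter windows of the same length, and that of Plet1 was below the median.

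In these windows 8 motifs were searched on both strands, and no matches overlapped. They were AGGTCA, the hexamer read by nuclear receptors such as PPARγ (in 14.0% of all windows), TTCNNNGAA for STAT factors (7.02%), GCGTG, the core of the AHR element (28.2%), GAGGAA, a core bound by PU.1 (23.3%), TGANTCA for AP-1 (6.75%), CACGTG, an E-box (6.02%), TTGCNNAA for C/EBP factors (9.56%) and TATAAA, the TATA box (12.4%). Plet1 held 4 of them. A TATA box began 30 bases upstream of the start, an AGGTCA on the other strand, printed as TGACCT, began 62 bases upstream, a TGANTCA began 144 bases upstream and a TTGCNNAA on the other strand began 198 bases upstream. The Car4 and Krt79 windows held 0 of the 8. A match is a run of letters and not a measured binding site, and the lack of one says only that the letters are not in this window.

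Car4 was at 8927 and 7518 counts in the control libraries and at 4149 and 4673 counts in the tumor libraries. Scaled by TMM, these counts were 475.6 and 475.7 CPM in controls and 239.3 and 237.9 CPM in tumors. The replicates nearly coincided and the groups did not overlap. The mean was 1.99-fold lower in tumor libraries (475.7 ± 0.0758 CPM in control and 238.6 ± 1.01 CPM in tumor, SD, n = 2 each), and the fitted log2 fold change was -0.996 (SE 0.0276). Each control library stood between 1.99-fold and 2.00-fold above each tumor library. The gap between replicates was smaller than counting error alone, since the exact 95% Poisson interval of the first control library ran from 465.8 to 485.6 CPM.

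Plet1, the most abundant of the 3, was at 31594 and 26848 counts in control libraries and at 15727 and 17148 counts in tumor libraries. This gave 1683 and 1699 CPM against 907.0 and 872.8 CPM. Again both control libraries were above both tumor libraries. The means were 1691 ± 11.04 and 889.9 ± 24.2 CPM (SD, n = 2 each), a 1.90-fold lower level in tumor libraries with a fitted log2 fold change of -0.93 (SE 0.0205), and folds between single libraries ran from 1.86 to 1.95. The tumor libraries differed from each other by 1.04-fold, the widest replicate gap among the 3 genes.

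Krt79 was at 7003 and 5926 counts in control libraries and at 4394 and 4948 counts in tumor libraries. The scaled levels were 373.1 and 375.0 CPM in controls and 253.4 and 251.8 CPM in tumors. The groups did not overlap here either, but they stood closer together than those of Car4 or Plet1. The means were 374.1 ± 1.33 and 252.6 ± 1.11 CPM (SD, n = 2 each), a 1.48-fold lower level with a fitted log2 fold change of -0.57 (SE 0.0285), and folds between single libraries ran from 1.47 to 1.49.

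**Figure D1:**
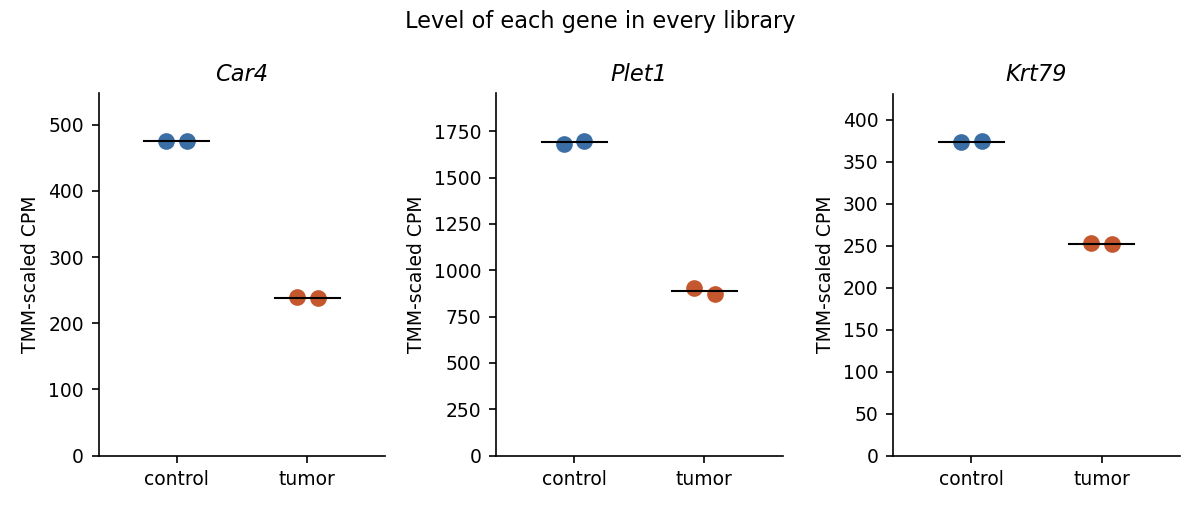
TMM-scaled CPM (vertical axes, linear and starting at 0) of Car4, Plet1 and Krt79 in the 2 control and 2 tumor libraries. Each point is a library and each line a group mean, and in every panel both control libraries lie above both tumor libraries.

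Both controls stood above both tumors for all 3 genes, an order seen in 35.8% of all tested genes, while the opposite order was seen in 39.3%. Read against the other genes, 492 tested genes (3.45%) had a lower fitted log2 fold change than Car4, 596 (4.18%) had a lower one than Plet1 and 1461 (10.2%) had a lower one than Krt79. Among the 2206 tested genes with a mean of at least 100 CPM, where 50.6% of genes fell, the corresponding numbers were 58 (2.63%), 76 (3.45%) and 249 (11.3%). These places follow from how the genes were picked and are no test of them.

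Per transcript length the order of the 3 genes was Plet1, then Car4, then Krt79, in every library. Plet1 stood at 2744 and 2755 TPM (a per-length level scaled to a fixed total per library, computed from the counts and the gene lengths of the file) in controls and at 1483 and 1435 TPM in tumors. Car4 stood at 767.8 and 763.9 TPM in controls and at 387.3 TPM in each tumor library, and Krt79 at 249.1 TPM in each control and at 169.7 and 169.6 TPM in tumors. Neighbours in this order were apart by far more than the spread between replicates. By mean TPM over the 4 libraries Plet1 held rank 41, Car4 rank 237 and Krt79 rank 759 among all genes. Without length the order of the lower pair depended on the group, since Car4 counts were 1.27 times those of Krt79 in both control libraries and 0.944 times those of Krt79 in both tumor libraries.

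Ratios within a library do not depend on its total or on TMM. Plet1 over Car4, per length, was 3.57 and 3.61 in controls and 3.83 and 3.70 in tumors, a small shift with 1.05-fold between the means. Car4 over Krt79 was 3.08 and 3.07 in controls and 2.28 in each tumor library. Plet1 over Krt79 was 11.01 and 11.06 in controls and 8.74 and 8.46 in tumors. Krt79 thus differed least between the groups, and neither of its ratios overlapped between them. Separation of 2 against 2 libraries was common in these data, and its share over other gene pairs was not computed. The centred log2 CPM profiles of Car4 and Plet1 over the 4 libraries differed by a root mean square of 0.0385, and those of Krt79 differed by 0.215 from Car4 and by 0.181 from Plet1.

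Of 35 other markers of airspace macrophages, all of them tested, 30 fell, 4 rose and 1 was not called, with a median log2 fold change of -0.47 against 0.02 over all tested genes. Falls made 85.7% of the list, against 24.8% of all tested genes and 50.6% of those with a mean of at least 100 CPM. With the summed list itself as library size, 17 fell and 14 rose, against 6.78% and 63.4% of all tested genes, and 11 changed sign, Ear2 among them. Several of these markers are also used by other cells of the preparation, among them Fn1, Spp1 and Lgals3, and by eosinophils Siglecf, Ear1 and Ear2. Eosinophil markers were far higher in tumor libraries. Their cells' part in these values, and in the summed list, was not tested. The list was written with results of these data known. The larger falls were in Fabp4 (log2 fold change -2.13, SE 0.129, adjusted p = 3.54e-14), in Olr1, an oxidized LDL receptor, from 689 to 220.2 CPM (-1.65, SE 0.0277), in Il1rn, the interleukin-1 receptor antagonist, from 638 to 214 CPM (-1.58, SE 0.0291), and in Trim29 (-1.11, SE 0.0645) and Lpl, lipoprotein lipase (-1.09, SE 0.0173). These 5 genes had lower fold changes than Car4, and Bhlhe41, a transcription factor of AM self-renewal, joined them below Plet1 (-0.98, SE 0.0491). Spp1, osteopontin, followed Plet1 closely, from 1371 to 727 CPM (-0.91, SE 0.0214).

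Among the other markers, Marco, a scavenger receptor of the AM surface, fell from 31.8 to 16.9 CPM (log2 fold change -0.91, SE 0.0933, adjusted p = 2.79e-09). Chil3, a chitinase-like lectin and the most abundant of the list, fell from 5161 to 3776 CPM (log2 fold change -0.45, SE 0.0195, adjusted p = 1.61e-17), and Mrc1, the mannose receptor, fell from 3419 to 2470 CPM (-0.47, SE 0.0158). Siglecf, a lectin of the AM and eosinophil surface, fell from 398.6 to 355.7 CPM (-0.16, SE 0.0273, adjusted p = 9.16e-06) but turned to 0.24 with the summed list as library size. Ear2, an eosinophil-associated ribonuclease, was at 1438 and 1400 CPM and was not called (-0.04, SE 0.0200, adjusted p = 0.102). The 4 genes that rose were Ear1, from 403 to 783 CPM (0.96, SE 0.0242), and Wfdc21, Ctsk and Serpinb1a, named after their values were seen, with log2 fold changes of 0.88, 0.08 and 0.11. Ctsk lost its call without control library 2 (adjusted p = 0.211) or tumor library 2 (0.102), and Serpinb1a without control library 2 (0.221) or tumor library 1 (0.126), while Ear2 gained one without control library 1 (0.0139) or tumor library 1 (0.00518). Ear1 and Ear2 are near-identical copies whose reads may be split between them. Krt79 lay inside the list, with 14 markers lower in fold change, and Car4 and Plet1 lay near its lower end, with 5 and 6.

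**Figure D2:**
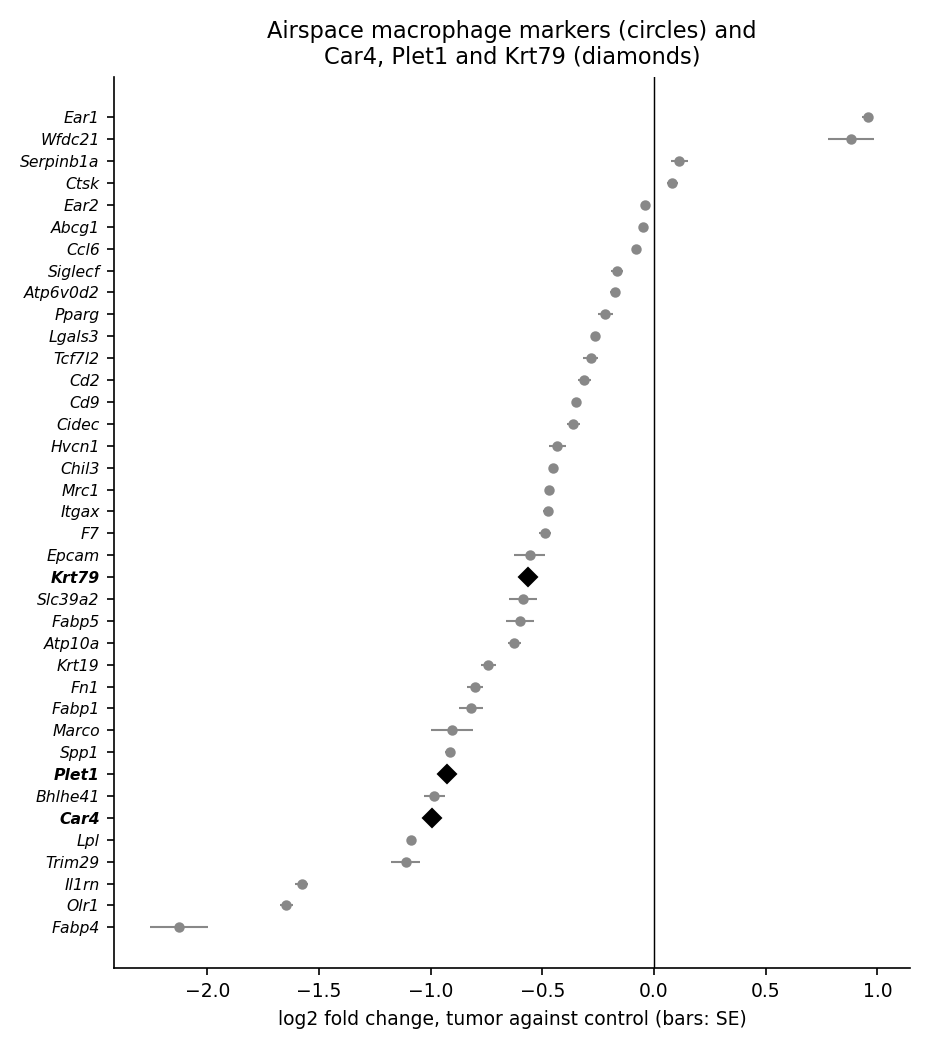
Log2 fold change of tumor against control (horizontal axis, bars are the SE of the fit) for 35 airspace macrophage markers (circles) and Car4, Plet1 and Krt79 (diamonds), ordered by value. Car4 at -0.996 and Plet1 at -0.93 sit among the 8 lowest genes and Krt79 at -0.57 in the middle, and with the summed list as library size all values would shift up by about 0.41.

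Set against the summed counts of these 35 markers in the same library, Car4 still differed between groups. It made 153.5 and 152.7 counts per 10000 counts of the list in controls and 102.7 and 101.1 in tumors. Plet1 made 543.4 and 545.4 in controls and 389.4 and 371.1 in tumors, and Krt79 made 120.5 and 120.4 in controls and 108.8 and 107.1 in tumors. The groups did not overlap for any of the 3, where on this scale both controls stood above both tumors in 10.5% of tested genes and both tumors above both controls in 73.4%. The tumor means were 0.666, 0.698 and 0.896 of the control means. The list itself held 3.03% and 3.04% of all counts in controls and 2.38% and 2.41% in tumors. Using the list as library size moved the fold changes of Car4, Plet1 and Krt79 to -0.59, -0.52 and -0.16 and the median of all genes up by 0.41 on the log2 scale, so a gene slightly lower in the first fit is higher under it. Of all 14256 tested genes 4600 changed sign, 63.4% were called higher and 6.78% lower under this scaling, which are the shares to read its counts against in the gene groups below.

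**Figure D3:**
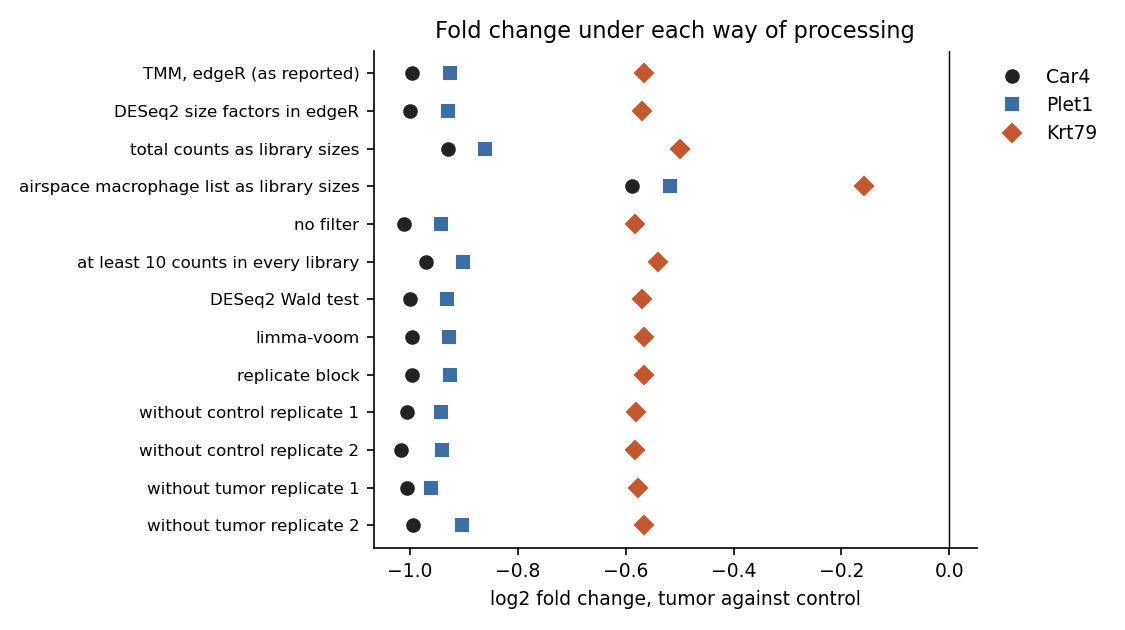
Log2 fold change of tumor against control (horizontal axis) for Car4 (circles), Plet1 (squares) and Krt79 (diamonds) under 13 ways of processing (vertical axis). The values stay below 0 throughout and in the order Car4, Plet1, Krt79, and the airspace macrophage list as library size moves all 3 toward 0, to -0.59, -0.52 and -0.16.

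Car4 was the dominant carbonic anhydrase of these cells. Per length it made 90.4% of the summed carbonic anhydrase level in controls and 86.8% in tumors, and its level was 9.58 and 9.32 times that of the other 15 members together in controls and 6.88 and 6.30 times in tumors. Of the 15 others, 9 were tested, 4 fell, 3 rose and 2 were not called, with a median log2 fold change of -0.36. These are 44.4% lower and 33.3% higher, against 24.8% and 29.0% of all tested genes. Car13, a cytosolic enzyme and the next in level, fell from 33.2 to 21.4 CPM (-0.62, SE 0.0925, adjusted p = 1.67e-06), and Car5b, a mitochondrial enzyme, from 28.1 to 16.9 CPM (-0.73, SE 0.0947). The other falls were in Car2, the fast cytosolic enzyme of osteoclasts and red cells (5.33 to 2.74 CPM, -0.95, SE 0.217), and Car11, a relative without catalytic activity (-1.50, SE 0.390). These 4 directions held with the airspace list as library size.

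The 3 carbonic anhydrases that rose were at low levels. Car3 went from 6 and 8 counts to 57 and 51 (log2 fold change 2.83, SE 0.397). Car8, another relative without activity, went from 3 and 1 counts to 24 and 24, at least 6.435-fold higher in CPM against a floor of 3 counts per library. Car15 rose from 1.06 to 1.90 CPM at an adjusted p of 0.0497, a call lost without control library 1 (adjusted p = 0.364), control library 2 (0.0668) or tumor library 2 (0.286). Car9, the hypoxia-inducible membrane enzyme, was at 5.14 and 4.32 CPM and Car7 at 1.40 and 1.10 CPM, neither of them called, and the sign of both turned under airspace-list scaling. Car14, Car12, Car10 and Car5a were detected at 12 counts or fewer and were not tested, and Car1 and Car6 had 3 counts or fewer.

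**Figure D4:**
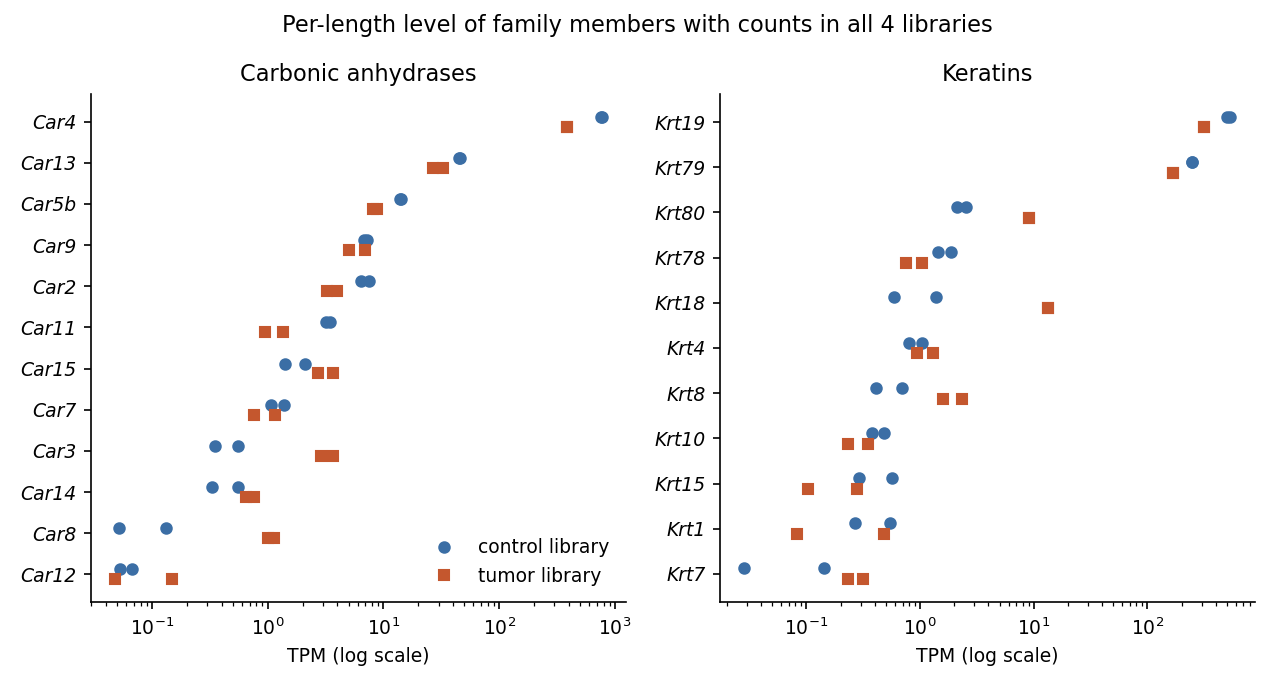
TPM on a log axis of the carbonic anhydrases (left) and keratins (right) with counts in all 4 libraries, ordered by level. Circles are control and squares tumor libraries, and Car4 (766 and 387 TPM) stands over all other carbonic anhydrases while Krt19 (522 and 315 TPM) and Krt79 (249 and 170 TPM) stand over all other keratins.

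Genes that carry the substrates and products of carbonic anhydrase, the bicarbonate, proton and lactate carriers, moved in both directions. Of 13 tested, 3 rose (23.1%), 4 fell (30.8%) and 6 were not called, with a median log2 fold change of -0.04, against 29.0% and 24.8% of all tested genes. Slc16a3, the lactate exporter MCT4, rose from 101 to 291 CPM (1.53, SE 0.0384, adjusted p = 4.95e-23). Hvcn1, the voltage-gated proton channel, fell from 204 to 151 CPM (-0.43, SE 0.0366), as did the lactate carrier Slc16a7 (-0.53, SE 0.0646) and the bicarbonate cotransporter Slc4a7 (-0.33, SE 0.0564). Bsg, basigin, the partner chain of the lactate carriers, was at 182 and 176 CPM and was not called. With the airspace list as library size 9 of the 13 rose and 0 fell, against 63.4% and 6.78% of all tested genes, and the direction of Slc4a7, Slc4a2, Slc9a9, Slc26a6 and Bsg turned.

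Car4 and Plet1 share the GPI anchor. Of 28 tested genes that build it, 7 rose, 7 fell and 14 were not called, with a median of -0.04, and the shares of rises and falls (25% each) were near those over all tested genes (29.0% and 24.8%). Pigs, a subunit of the transamidase that attaches the anchor, fell from 154 to 142 CPM (-0.12, SE 0.0375, adjusted p = 0.00788), a fall that turned to a rise of 0.29 under airspace-list scaling. Gpaa1, another subunit of the same enzyme, rose from 42.2 to 53.9 CPM (0.36, SE 0.0666). Dpm1, the mannosyl donor synthase, rose the most (1.07, SE 0.173), and Pigw, an acyltransferase of the inositol, was the lowest (-0.76, SE 0.194). Under that scaling 21 of the 28 rose and 0 fell, against 63.4% and 6.78% of all tested genes, and 16 changed sign.

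Among other GPI-anchored surface proteins of leukocytes, 26 were tested, of which 12 rose, 8 fell and 6 were not called, and the median was 0.41. Falls made 30.8% of the list against 24.8% of all tested genes and rises 46.2% against 29.0%. With the airspace list as library size 18 of the 26 rose and 2 fell, against 63.4% and 6.78% of all tested genes, and 5 changed sign. Cd14, the endotoxin co-receptor, had the highest per-length level among them, and it fell from 1110 to 903 CPM (-0.30, SE 0.0208), a direction that turned to 0.11 under airspace-list scaling. Fcgr4, counted among the 8 falls of the list, encodes a transmembrane IgG receptor in mice and not a GPI-anchored one, so it does not belong to the group. Without it, an alternative added after its values were seen, 7 of 25 fell (28%) and 12 rose (48%), with a median of 0.74. Ulbp1 (-0.26, SE 0.0771), whose mouse product is also transmembrane, was still counted among these 7 falls, so the trimmed list is not purely GPI-anchored either. Dpep3, a dipeptidase, fell from 9.31 to 4.53 CPM (-1.03, SE 0.174), and Treh, trehalase, fell from 16 and 17 counts to the floor of 3 counts or fewer. Among the rises, Cd24a went from 263 to 571 CPM (1.12, SE 0.0279), Cd52 from 6.48 to 64.5 CPM (3.31, SE 0.0934), Ly6e from 10.05 to 59.1 CPM (2.55, SE 0.0876) and Cd55, decay-accelerating factor, from 2.01 to 35.0 CPM (4.11, SE 0.140). Ly6g, which defines neutrophils, went from 0 and 1 counts to 284 and 331.

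Among keratins, Krt19 and Krt79 made up nearly the whole level. Krt19, a type I keratin of simple epithelia, was at 295 and 317 CPM in controls and at 183 CPM in each tumor library, and it fell by 0.74 on the log2 scale (SE 0.0344, adjusted p = 8.16e-17). Per length Krt19 made 67.0% of the keratin sum in controls and 61.1% in tumors, and Krt79 made 32.0% and 33.0%. The ratio of these 2 keratins, type II Krt79 over type I Krt19 per length, was 0.493 and 0.462 in controls and 0.541 and 0.537 in tumors. Whether they pair in filaments was not measured. The groups did not overlap, which is common with 2 libraries each, and the ratio of the means was only 1.13.

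The remaining keratins were low. Of 51 matched keratins other than Krt79, 29 were at 0 in every library and 8 were tested, of which 4 rose, 1 (Krt19) fell and 3 were not called, against 29.0% higher and 24.8% lower over all tested genes. With at least 10 counts required in every library, 1 rise remained, since Krt18, Krt8 and Krt83 were under 10 counts in a control. Krt80 rose from 4.68 to 18.2 CPM (1.95, SE 0.143). Krt18 and Krt8, the pair of simple epithelium, rose from 5 and 10 to 105 and 117 counts (3.77, SE 0.322) and from 8 and 4 to 17 and 28 counts (1.79, SE 0.519), the latter with an adjusted p of 0.00477 that became 0.101 without control library 2 and 0.0936 without tumor library 2. Krt83, a hair keratin, had 0 counts in both controls and 12 and 13 in tumors, at least 3.485-fold higher in CPM against the same floor. It passed the filter on low counts only through the tumor libraries, so a rise was its only possible call. Krt78, next to Krt79 on the chromosome, was at 1.79 and 0.964 CPM and missed the threshold (-0.87, SE 0.379, adjusted p = 0.0564), and Krt4 and Krt1 were at under 1 CPM. The call of Krt78 was gained without tumor library 2 (adjusted p = 0.0455). Krt5, Krt14 and Krt17, which define basal keratinocytes, had 4 counts or fewer.

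Among other intermediate filaments and the proteins that link filaments to membrane and nucleus, 13 were tested, of which 5 fell, 3 rose and 5 were not called, with a median log2 fold change of -0.14. Falls made 38.5% and rises 23.1% of the tested genes of this list, against 24.8% and 29.0% of all tested genes. Vim, vimentin, fell from 6595 to 5565 CPM (-0.24, SE 0.0134), and this direction turned to 0.16 under airspace-list scaling, where 5 of the 13 changed sign. The large linkers had lower fold changes, with Dst at -0.97 (SE 0.0217), Plec, plectin, at -0.90 (SE 0.0248) and Macf1 at -0.79 (SE 0.0251), and these 3 falls held under that scaling. Lmnb1, lamin B1, rose from 25.7 to 234 CPM (3.18, SE 0.04999), and Dsp, desmoplakin, from 0.376 to 4.73 CPM (3.62, SE 0.343).

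Among regulators of the airspace macrophage programme, 25 were tested, of which 12 fell (48%), 9 rose (36%) and 4 were not called, with a median of -0.01, against 24.8% and 29.0% of all tested genes. Both GM-CSF receptor chains fell, Csf2ra from 567 to 440 CPM (-0.37, SE 0.0268) and Csf2rb from 1479 to 1050 CPM (-0.49, SE 0.0189). Csf2rb2, which encodes the beta chain specific to IL-3 in mice, fell from 769 to 481 CPM (-0.68, SE 0.0238). Csf2rb and Csf2rb2 are near-identical copies that may share reads. Pparg fell from 223 to 192 CPM (-0.22, SE 0.0337, adjusted p = 3.29e-06), a direction that turned to 0.19 under airspace-list scaling. Egr2 (-0.53, SE 0.0234) and Bhlhe40 (-0.34, SE 0.0207) fell, and under that scaling Bhlhe40 turned to 0.06 and Csf2ra to 0.04. Cebpb rose from 591 to 743 CPM (0.33, SE 0.0254), Stat5b from 74.1 to 112 CPM (0.59, SE 0.0467) and Smad3, a transducer of TGF-β signals, from 1.22 to 19.6 CPM (4.00, SE 0.184). With that scaling 19 of the 25 rose and 4 fell, against 63.4% and 6.78% of all tested genes, and 10 changed sign, Spi1, Tgfbr2 and Zeb2 among them.

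Markers of the other cell types known for these genes were measured in the same libraries, and their part in the levels of Car4, Plet1 and Krt79 was not tested. For the capillary endothelium that carries Car4, the summed level of 18 markers was 215.2 to 215.3 CPM in controls and 192.6 to 200.1 CPM in tumors. It was led by Vwf (means of 111 CPM in controls and 81.8 CPM in tumors) and Cd93 (78.4 and 78.2 CPM). Neither is particular to these capillary cells, so the sum says little of them. Of the 11 tested markers of this list 2 rose (18.2%) and 3 fell (27.3%), against 29.0% and 24.8% of all tested genes, with a median log2 fold change of 0.03. Pecam1, an adhesion molecule of endothelium and leukocytes, rose from 2.13 to 18.8 CPM (3.13, SE 0.170). Ednrb, which defines the Car4-bearing capillary cells, was at 36 and 21 counts in controls and 2 and 5 in tumors, while Apln, Fibin and Gpihbp1 had 9 counts or fewer in every library. For epithelium and keratinocytes, the summed level of 23 markers was 227.6 to 230.9 CPM in controls and 153.9 to 162.7 CPM in tumors, led by Cdh1, which AMs also express, and of 13 tested markers 3 rose (23.1%) and 6 fell (46.2%), with a median log2 fold change of 0.09, against 29.0% and 24.8% of all tested genes. Scgb1a1, the club cell secretoglobin, named after its values were seen, was part of that sum and fell from 72.6 to 22.2 CPM (-1.70).

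Genes near each of the 3 were examined in the same fit. Around Car4, 7 protein-coding genes within 200 kb were tested, of which 5 fell and 2 rose, where 24.8% of all tested genes fell and 29.0% rose. Ggnbp2, 86969 bases away, fell from 329 to 169 CPM (-0.97, SE 0.0313, adjusted p = 2.2e-20), nearly the fold of Car4, and Myo19 fell from 18.8 to 8.68 CPM (-1.11, SE 0.128). Pigw (-0.76), Znhit3 (-0.48) and Mrm1 (-0.37) also fell, while Usp32, whose end lies nearest, rose from 88.6 to 138 CPM (0.64, SE 0.0426) and Dhrs11 rose by 0.42. The calls of the weaker genes rested on single libraries, since Znhit3 was lost without control library 1 (adjusted p = 0.0677) or tumor library 1 (0.137), Dhrs11 without control library 2 (0.182) and Mrm1 without any 1 of the 4 (0.0511 to 0.110). Mrm1 also turned to 0.03 with the airspace list as library size. Around Krt79, 8 of 14 protein-coding genes were tested, Krt8 and Krt18 rose and the other 6 were not called, among them Eif4b at 428 and 416 CPM, and 5 of the 14 were at 0 in every library.

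Around Plet1, 10 of 11 protein-coding genes were tested, 3 fell and 7 were not called, where 24.8% of all tested genes fell. Il18, the cytokine interleukin 18, fell from 299.7 to 220.4 CPM (-0.44, SE 0.0304), and Nkapd1 (-0.30, SE 0.0845) and Tex12 (-1.48, SE 0.516) fell. Nkapd1 turned to 0.11 with the airspace list as library size and lost its call without tumor library 2 (adjusted p = 0.0652), and Tex12 lost it without control library 1 (0.299), control library 2 (0.0564) or tumor library 2 (0.180). The antisense gene Plet1os, which spans Plet1 on the minus strand, fell more than any of these and more than the value of Plet1 itself. It was at 2361 and 1839 counts in controls and at 715 and 768 in tumors (121 and 40.2 CPM, -1.60, SE 0.0558, adjusted p = 1.26e-19). Plet1 over Plet1os, per length, was 8.56 and 9.34 in controls and 14.1 and 14.3 in tumors. The genes share 261 exonic bases, 13.4% of Plet1 and 21% of Plet1os, and since the strand setting of the counting was not stated, reads of one may have been assigned to the other.

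**Figure D5:**
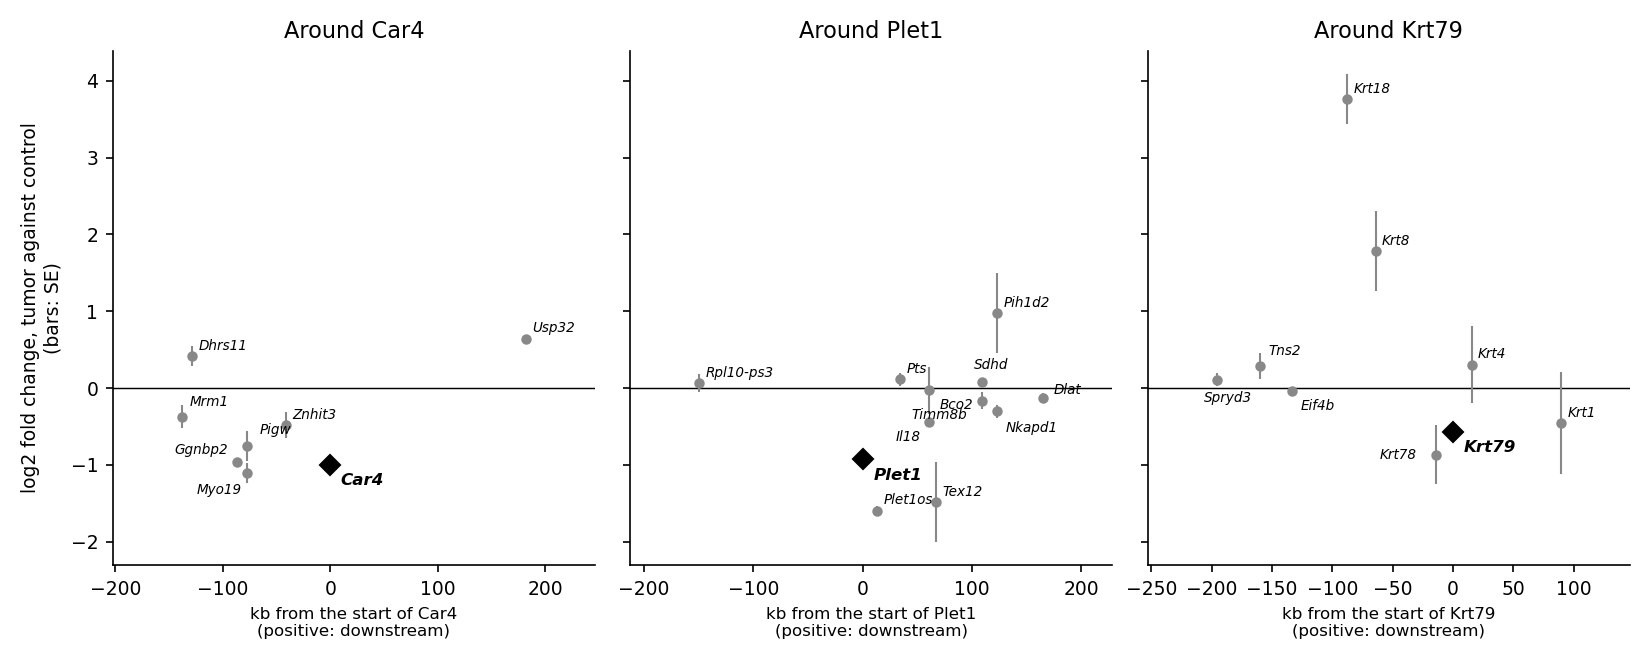
Log2 fold change of tumor against control (vertical axis, bars are the SE of the fit) for tested genes within 200 kb of Car4, Plet1 and Krt79, placed by the distance between start sites in kb (positive is downstream of the member, drawn as a diamond). Ggnbp2 and Myo19 near Car4 and Plet1os and Tex12 near Plet1 lie at or below -0.97, and Krt18 near Krt79 lies at 3.77.

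The genes whose centred log2 CPM profile over the 4 libraries was most like each member were found among 8371 genes with a mean of at least 10 CPM. For Car4 they were Oaf, Ggnbp2, Arf2, Nfkbid and G3bp1, at a root mean square difference of 0.0154 to 0.0190. Those of Plet1 included Spp1 at 0.00600, then Bend3, Med26 and Il1b, the cytokine interleukin-1β, at up to 0.0161. Krt79 had Syne2 at 0.00462, then Il10ra, the interleukin-10 receptor, Yipf6, Clec7a, the β-glucan receptor Dectin-1, and Ermp1 at up to 0.0104. With 4 libraries in 2 groups this measure mostly reads the size of the difference between groups, and 161, 209 and 859 genes lay within 0.1 of Car4, Plet1 and Krt79.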

How the data were processed

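Bulk RNA-seq of purified AMs was examined in 2 control and 2 tumor libraries, grouped by the titles in the labels. RNA was isolated with TRIzol for NEBNext Ultra libraries. Per the study and its processing notes, paired-end reads were aligned with HISAT2 2.0.5 and counted per gene with featureCounts, and DESeq2 is named without a version. The authors deposited raw counts, whole numbers for each gene and library, with no normalization. The genome build, strand setting and treatment of reads with several matches were not given in the sources used here. Of 54532 gene identifiers, 54409 were found in GENCODE M21 (GRCm38), 98.3% of them with identical coordinates, so positions are given in that build.

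In R 4.3.3, genes were kept by filterByExpr of edgeR 4.0.16 (minimum count 10), libraries were scaled by TMM (factors 0.977 to 1.02), and group was tested with the quasi-likelihood test (glmQLFit, glmQLFTest, 2 residual degrees of freedom), two-sided, with Benjamini-Hochberg adjustment over 14256 genes and a threshold of 0.05. The procedure was first tested on simulated data. CPM, TPM and their SD over libraries were computed from the counts. The floor was 3 counts, 0.153 to 0.190 CPM. A gene at the floor in both controls passed the filter only through the tumor libraries and could only be called higher. Besides the cell type markers, this held for 1 tested carbonic anhydrase, 1 carrier, 1 keratin and 3 other GPI-anchored proteins. Poisson intervals and floors cover counting error only. Replicates differed by more than sampling noise (chi-square over degrees of freedom 1.81 for controls and 2.30 for tumors), and the spread between libraries was small (common dispersion 0.000916), so small differences were called.

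Car4, Plet1, Krt79 and all gene lists were chosen with earlier results of these data known. Named were the 3 genes, carbonic anhydrases and keratins with more than 3 counts, up to 8 genes per list by per-length level and by fold change, tested neighbours within 200 kb, 5 genes per member by profile, the cell type markers, and genes said to be named later. Some of these are not reported here. Lists are described by counts and medians, without the 3 genes. Dpep2 (1 symbol on 2 identifiers), Krt85 and Pigy were not analysed here. Upstream sequences and start sites came from RefSeq (GRCm38.p6), and all 3 genes matched. Alternatives were DESeq2 1.42.0 size factors and Wald test, total counts or the airspace macrophage list as library sizes, no filter or at least 10 counts in every library, limma-voom (limma 3.58.1), the replicate number as a block, each library left out, a fold threshold of 2, no length scaling and a minimum of 50 CPM for profiles.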

Additional observations from a re-analysis of the deposited data

How the results depend on the processing

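With 2 libraries per group the tests rest on sharing the spread across genes, no permutation of the groups can pass the threshold, and leaving out a library leaves 1 that is assumed to vary like the rest. Of 277 values computed under alternatives, 218 were within the tolerance, 58 moved beyond it and 1 reversed. The tolerance was a factor of 1.5 for counts of genes and 1 SD between replicates for the fold changes and level ratios of the 3 genes. The reversed value was the log2 ratio of Car4 over Krt79 in tumor libraries, which is 1.19 per length and -0.0827 without length (0.35 in controls), by construction.

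The fold changes of Car4, Plet1 and Krt79 stayed below 0 under every alternative. They were -0.93, -0.86 and -0.50 with total counts as library sizes and -0.59, -0.52 and -0.16 with the airspace macrophage list. Without a filter Car4 was at -1.01 and Krt79 at -0.58, and with at least 10 counts in every library they were at -0.97 and -0.54. With each library left out, Car4 ranged from -1.016 to -0.995, Plet1 from -0.96 to -0.90 and Krt79 from -0.58 to -0.57 (-0.5657).

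Over all genes, 4136 rose and 3535 fell. The airspace macrophage list as library size gave 9040 and 966, by construction of a scale that holds falling genes level, and a threshold of 2-fold gave 1839 and 429. Leaving out a library gave 3510 to 3956 rises and 3005 to 3514 falls. With the airspace list as library size, rises and falls were 9 and 0 for carriers, 6 and 3 for other filaments, 21 and 0 for GPI assembly, 14 and 17 for airspace markers, 19 and 4 for regulators, and falls of GPI-anchored proteins were 2. With a threshold of 2-fold, falls were 1 for carbonic anhydrases, 0 for carriers, 0 for keratins, 0 for other filaments, 0 for GPI assembly, 2 for GPI-anchored proteins, 5 for airspace markers and 0 for regulators, and rises were 1 for GPI assembly, 0 for airspace markers and 1 for regulators. At that threshold 3.01% of all tested genes fell and 12.9% rose, so few or no falls are usual in lists of this size. With at least 10 counts in every library, rises were 1 for carbonic anhydrases, 1 for keratins and 5 for GPI-anchored proteins. Genes under 10 counts in any library were then not tested. Falls of keratins were 2. Without a filter, falls of keratins were 2 and rises of airspace markers 2. GPI assembly had 2 falls with total counts and 2 with the Wald test of DESeq2, which also gave 2 rises of airspace markers. The causes of these last shifts were not tested.

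Leaving out each library gave ranges of 2 to 3 rises and 4 to 4 falls for carbonic anhydrases, 2 to 4 and 1 to 2 for keratins, 6 to 6 and 4 to 7 for GPI assembly, and 2 to 4 and 29 to 31 for airspace markers. Keratins had 2 rises and 2 falls without tumor replicate 2, GPI assembly had 4 falls without control replicate 1, and airspace markers had 2 rises without control replicate 2. A minimum of 50 CPM kept 3 of the 5 genes most like Plet1. The groups share replicate numbers, but deviations of same-numbered libraries were not correlated (-0.00278 over 14256 genes), so the numbers were not taken as pairs. With the replicate number as a block, 4021 genes rose and 3425 fell, and Car4, Plet1 and Krt79 were at -0.9956, -0.93 and -0.57. Among genes named in the text, the block ended the call of Car15 (adjusted p = 0.0637).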

Other observations

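Dendritic cell and monocyte markers moved in both directions. Over all tested genes 29.0% rose and 24.8% fell. Of 10 tested dendritic cell markers 5 rose (50%) and 3 fell (30%). Their median log2 fold change was 1.38, and their summed level was 640.1 to 655.3 CPM in controls and 517.1 to 527.4 CPM in tumors, led by Wdfy4, which fell from 632 to 474 CPM (log2 fold change -0.41, edgeR). The 5 that rose were at lower levels, among them Cd209a, a C-type lectin, from 0.831 to 13.5 CPM (4.05), Flt3, a growth factor receptor, from 0.398 to 4.11 CPM (3.33), and Ccr7, a chemokine receptor, from 2.70 to 13.3 CPM (2.28). Of 10 tested monocyte and interstitial macrophage markers 3 rose (30%) and 5 fell (50%), with a median of -0.57 and a summed level of 188.1 to 196.9 CPM in controls and 208.5 to 208.7 CPM in tumors. Apoe led this list and rose from 146 to 170 CPM (0.22), while Cd163, a haemoglobin scavenger receptor, fell from 122 and 87 counts to 22 and 31 (-2.07), Cx3cr1, the fractalkine receptor, from 3.22 to 0.981 CPM (-1.71) and C1qb, a complement subunit, from 7.24 to 2.99 CPM (-1.27). All 5 tested of 8 basophil and mast cell markers rose. Each of the 5 was at 3 counts or fewer in both controls and passed the filter only through the tumor libraries. A rise was thus the only call open to them. The sum of the list was 0.266 to 0.380 CPM in controls and 50.6 to 55.8 CPM in tumors, with Gata2 the highest. The 3 tested erythroid markers rose, and the sum of the list was 0.693 to 1.46 CPM in controls and 14.4 to 15.3 CPM in tumors.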
